A study of Mus musculus with 8 samples.

Results

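The genes described here are the sensors, transcription factors and effectors of the integrated stress response and of the unfolded protein response of the endoplasmic reticulum (ER). They were taken by gene symbol from a table of 33971 genes, and all 33 symbols on the list were found once each. By role, they are 4 sensors (*Ern1*, *Eif2ak3*, *Eif2ak4* and *Atf6*), 2 transcription factors (*Atf4* and *Xbp1*), 11 ER folding genes, 3 genes of ER-associated degradation and 13 target genes of *Atf4*. The samples were whole brains of wild-type (WT) mouse embryos at E14.5 from time-mated WT females and males. Maternal feed was normal chow (ND, 4 brains) or lacked choline (choline-deficient diet, CDD, 4 brains), and no other allele or treatment is given for either group. The study's methods start the CDD at mating, whereas a supplementary legend places the start before mating, and the number of dams and litters behind these brains is not stated. P-values therefore measure the spread between these brains, which may include littermates. Polyadenylated RNA was sequenced in bulk, so that fewer cells of a type and less RNA per cell cannot be told apart in any result.

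The ER folds secreted and membrane proteins. When unfolded proteins accumulate there, the kinase *Ern1* (IRE1) splices the mRNA of *Xbp1*, *Atf6* is cut to release a transcription factor, and the kinase *Eif2ak3* (PERK) phosphorylates the translation factor eIF2. Spliced *Xbp1* and cut *Atf6* raise chaperones, oxidoreductases and degradation factors of the ER. Phosphorylated eIF2, which *Eif2ak4* (GCN2) also produces when amino acids are scarce, slows translation in general but favors the translation of *Atf4*, which in turn raises genes of amino acid synthesis, amino acid transport and stress-induced death. In the developing brain, this balance is known to affect how progenitors produce neurons. Because splicing of *Xbp1*, cutting of *Atf6* and translation of *Atf4* act after transcription, counts per gene do not show them.

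Between 31770217 and 43121170 reads were counted on genes per brain. Of 19367 genes tested with edgeR's quasi-likelihood test (adjusted p-value under 0.05, Benjamini-Hochberg over all of them), 1710 changed (8.83%), of which 822 were higher (4.24%) and 888 lower (4.59%) in the CDD group, and the median over all genes was -0.004 on the log2 scale. One CDD brain, replicate 2, carried 144 CPM of Hox gene reads (CPM, reads of a gene scaled to the size of the library) against 0.468 to 3.38 CPM in the other 7 brains, and ND replicate 3 carried 1232 CPM of the adult globin *Hba-a1* against 350 to 649 CPM in the other ND brains. Hox genes were listed here as markers of caudal tissue, and whether the dissections differed in it was not tested. All 8 brains were kept. Calls that were lost without 1 brain are given beside the result, except for the markers of cell types.

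Of the 33 genes, 32 passed the filter on low counts. *Gdf15*, a secreted stress factor, did not pass, at 0.0290 to 0.289 CPM in the 8 brains. In CDD brains 5 of the 32 genes were higher and 0 were lower, and all 5 belong to the 11 ER folding genes. Among ER folding genes, 5 of 11 (45.5%) were therefore called higher, whereas 4.24% of all tested genes and 8.59% of the 5160 genes averaging 50 CPM or more were called higher. For these 5 of 11 genes every CDD brain was above every ND brain, which holds for 7.65% of all tested genes. Among the 12 tested *Atf4* target genes, 0 were called in either direction with edgeR at the adjusted threshold. Of these 12 genes, 4 had an unadjusted p-value under 0.05, all of them with negative log2 fold changes. Over all 19367 genes tested, 4627 had an unadjusted p-value under 0.05 in either direction. With DESeq2, 0 *Atf4* target genes were called as well, but *Atf3*, *Trib3* and *Nupr1* received no adjusted p-value there and could not be called. The median log2 fold change with edgeR was -0.13 for the 12 tested *Atf4* target genes and 0.17 for the ER folding genes.

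**Figure D1:**
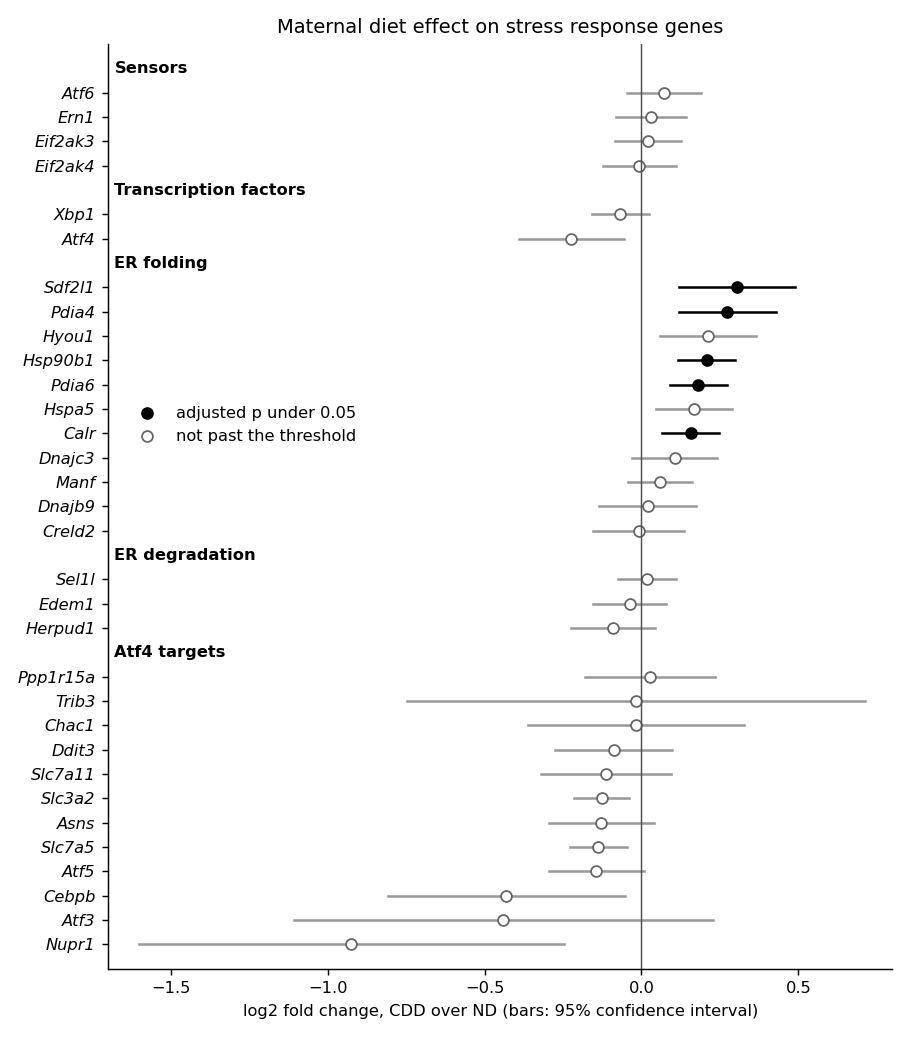
Log2 fold change (CDD over ND) of the 32 tested genes, grouped by role, with the 95% confidence interval of edgeR's quasi-likelihood fit as bars. Filled points mark an adjusted p-value under 0.05: all 5 are ER folding genes and lie between 0.16 and 0.31, while 11 of the 12 *Atf4* target genes lie below 0. Of all 19367 genes tested, 9860 had a log2 fold change below 0.

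Short promoter sequences known from both responses are shown first. Between the ER folding genes and the *Atf4* target genes, some were found in a single group and another in both. The ER stress element (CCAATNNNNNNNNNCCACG) is known to be bound by *Atf6* together with the CCAAT-binding factor NF-Y, and the C/EBP-Atf response element (TGATGNAA) by *Atf4* with a C/EBP partner. RefSeq promoters of 300 bases (250 before and 50 after the start of the gene, build GRCm38.p6) were searched on both strands for these letters, for the second form of the ER stress element (ATTGGNCCACG) and for the CCAAT box (CCAAT). Both forms of the ER stress element contain a CCAAT box, read on one strand or the other. Promoters were listed for 29 of the 33 genes, and those of *Slc7a5*, *Atf6*, *Manf* and *Hyou1* were not among them. Of all 27025 gene symbols with a promoter, 0.137% held the ER stress element, 0.0444% its second form, 4.51% the C/EBP-Atf response element and 41.1% a CCAAT box. Among the 9 ER folding genes with a promoter, 6 held the ER stress element and 9 a CCAAT box. Among the 12 *Atf4* target genes with a promoter, 0 held the ER stress element and 6 a CCAAT box. The sites of the ER folding genes follow, in the orientation of the motif, with 10 flanking bases and with the fixed letters of the motif in capitals:
*Calr* (chr8:84847065-84847103, plus strand): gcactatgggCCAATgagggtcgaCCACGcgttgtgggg
*Creld2* (chr15:88819510-88819548, minus strand): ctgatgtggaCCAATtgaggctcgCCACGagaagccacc
*Dnajc3* (chr14:118937817-118937855, plus strand): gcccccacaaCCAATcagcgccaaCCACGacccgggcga
*Hsp90b1* (chr10:86705523-86705561, plus strand): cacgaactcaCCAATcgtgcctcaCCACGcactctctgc
*Hsp90b1* (chr10:86705628-86705666, minus strand): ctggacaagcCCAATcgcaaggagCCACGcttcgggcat
*Hspa5* (chr2:34772015-34772053, plus strand): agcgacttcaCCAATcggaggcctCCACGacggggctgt
*Pdia6* (chr12:17266481-17266519, plus strand): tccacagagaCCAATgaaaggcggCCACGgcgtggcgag
Of these 6 genes, *Hsp90b1*, *Pdia6* and *Calr* were higher in CDD brains, and *Hspa5*, *Dnajc3* and *Creld2* did not pass the threshold. Over the whole table, 22 tested genes held the ER stress element in a promoter, of which 3 were called higher (13.6%) and 1 lower (4.55%), against 4.90% and 5.18% of the 12827 tested genes with a listed promoter. The 3 called higher are *Hsp90b1*, *Pdia6* and *Calr*.

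The C/EBP-Atf response element was found in 6 of the 12 *Atf4* target genes with a promoter and in 0 of the 9 ER folding genes. The sites follow in the same form:
*Asns* (chr6:7693215-7693242, minus strand): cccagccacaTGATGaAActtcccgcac
*Atf3* (chr1:191183426-191183453, plus strand): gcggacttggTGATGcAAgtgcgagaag
*Chac1* (chr2:119351039-119351066, minus strand): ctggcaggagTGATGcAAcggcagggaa
*Nupr1* (chr7:126625563-126625590, plus strand): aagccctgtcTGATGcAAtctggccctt
*Slc7a11* (chr3:50443643-50443670, plus strand): ggctgcatgaTGATGcAAattctccagg
*Slc7a11* (chr3:50443662-50443689, minus strand): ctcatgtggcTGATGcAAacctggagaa
*Trib3* (chr2:152344029-152344056, plus strand): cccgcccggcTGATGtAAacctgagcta
*Slc7a11* held a pair of them in opposite orientations. The site of *Trib3* lies after the start of the gene, and the others lie before it. None of these 6 genes was called with edgeR (0 of 6, with a median log2 fold change of -0.12), and of all 359 tested genes holding the element 3.06% were called higher and 6.41% lower. *Herpud1*, a degradation factor, held both this element and the second form of the ER stress element:
*Herpud1* (chr8:94386307-94386334, minus strand): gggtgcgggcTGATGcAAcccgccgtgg
*Herpud1* (chr8:94386367-94386397, plus strand): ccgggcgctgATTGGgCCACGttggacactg

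The promoters of *Hsp90b1*, which holds a pair of ER stress elements, and of *Pdia4* and *Sdf2l1*, which were also higher in CDD brains but hold none, are printed for comparison. They cover the 250 bases before the start of each gene on its own strand, with CCAAT boxes and the fixed letters of ER stress elements in capitals on either strand, so that ATTGG and CGTGG are the same letters read from the other strand:
*Hsp90b1* (chr10:86705445-86705694, minus strand): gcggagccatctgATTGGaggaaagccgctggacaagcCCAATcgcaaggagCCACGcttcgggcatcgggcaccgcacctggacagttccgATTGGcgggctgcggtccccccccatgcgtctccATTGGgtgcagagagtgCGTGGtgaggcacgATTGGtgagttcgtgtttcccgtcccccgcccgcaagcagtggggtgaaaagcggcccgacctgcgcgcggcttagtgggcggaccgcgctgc
*Pdia4* (chr6:47813513-47813762, minus strand): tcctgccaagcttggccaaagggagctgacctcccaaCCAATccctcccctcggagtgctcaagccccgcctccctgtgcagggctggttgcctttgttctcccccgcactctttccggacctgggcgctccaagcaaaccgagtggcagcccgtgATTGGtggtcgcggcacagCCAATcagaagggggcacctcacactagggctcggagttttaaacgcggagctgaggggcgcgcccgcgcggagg
*Sdf2l1* (chr16:17132384-17132633, minus strand): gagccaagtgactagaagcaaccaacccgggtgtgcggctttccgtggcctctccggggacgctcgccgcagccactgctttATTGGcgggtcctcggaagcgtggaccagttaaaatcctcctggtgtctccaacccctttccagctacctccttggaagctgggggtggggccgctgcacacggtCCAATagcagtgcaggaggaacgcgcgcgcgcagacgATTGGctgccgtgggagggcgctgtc
*Hsp90b1* holds 5 CCAAT boxes in this stretch, and *Pdia4* and *Sdf2l1* hold 3 each. No match says only that these letters are not in this window.

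Among the sensors of both responses no difference between the diets was called. *Atf6* was measured at 39.4 ± 2.11 CPM in CDD and 37.5 ± 1.44 CPM in ND brains (mean ± SD, n = 4 each, here and below), *Ern1* at 34.0 ± 0.709 and 33.3 ± 0.923 CPM, *Eif2ak3* at 39.3 ± 0.950 and 38.8 ± 0.596 CPM, and *Eif2ak4* at 39.5 ± 2.47 and 39.7 ± 0.834 CPM. Their log2 fold changes lay between -0.01 and 0.07, 0 of 4 were called with edgeR, and 0 of 4 had an unadjusted p-value under 0.05. The 95% confidence intervals, of which the widest bounds were -0.12 (*Eif2ak4*) and 0.19 (*Atf6*), leave room for small changes of either sign. *Xbp1* was at 63.9, 63.1, 62.5 and 67.3 CPM in CDD replicates 1 to 4 and at 68.0, 67.9, 67.0 and 66.1 CPM in ND replicates 1 to 4. CDD replicate 4 lay among the ND brains and the other CDD brains lay below them. The log2 fold change was -0.07 (SE 0.04), which did not pass the threshold with edgeR (adjusted p = 0.368).

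*Atf4* (chromosome 15, 80139385 to 80141742, plus strand, on a build that is not named), the transcription factor at the end of the integrated stress response, was at 107, 93.4, 104 and 78.9 CPM in CDD replicates 1 to 4 and at 110, 112, 116 and 110 CPM in ND replicates 1 to 4. Every CDD brain was below every ND brain, and the CDD brains were spread more widely (SD 12.6 against 2.59 CPM), with replicate 4 the lowest. The mean was 14.4% lower (log2 fold change -0.22, SE 0.08), and the difference did not pass the threshold with edgeR (adjusted p = 0.0940, unadjusted p = 0.0131). It passed with DESeq2 (adjusted p = 0.0302), with a block for the replicate number (edgeR, adjusted p = 0.0201) and without the filter on low counts (edgeR, adjusted p = 0.000217). It also passed without CDD replicate 1, 3 or 4, with a smallest adjusted p of 0.0330 by edgeR, and it did not pass in the fits without CDD replicate 2 or any 1 of the ND brains. The call on *Atf4* therefore depends on the setting, while the log2 fold change stayed between -0.28 and -0.14 with each brain left out.

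**Figure D2:**
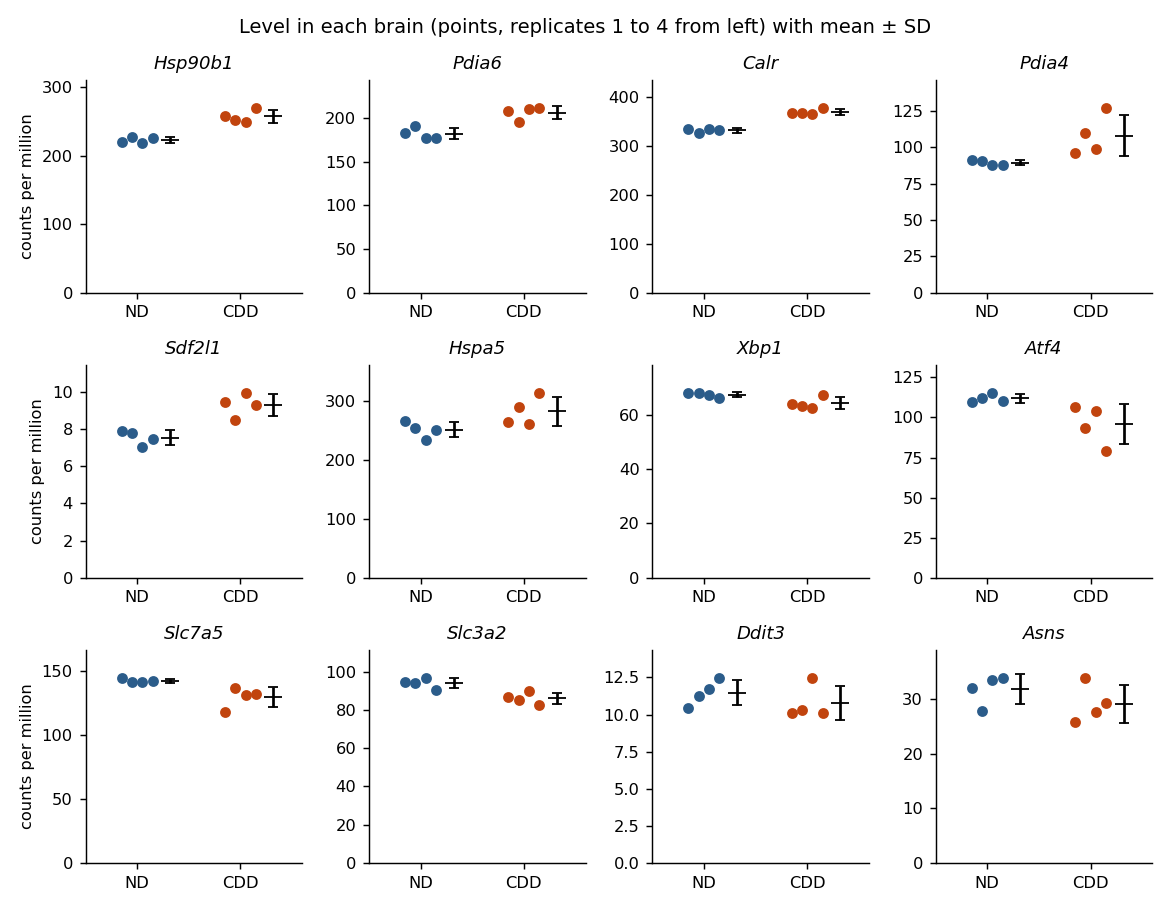
Level in CPM (y axes, starting at 0) of 12 genes in each ND (blue) and CDD (red) brain, with mean ± SD beside the points. For *Hsp90b1*, *Pdia6*, *Calr*, *Pdia4* and *Sdf2l1* every CDD brain is above every ND brain, for *Atf4*, *Slc7a5* and *Slc3a2* every CDD brain is below, and for *Hspa5*, *Xbp1*, *Ddit3* and *Asns* the diets overlap.

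*Hsp90b1* (chromosome 10, 86526073 to 86541373, minus strand), which encodes the ER chaperone Grp94, had the smallest p-value of the 32 genes. It was at 258, 252, 249.7 and 271 CPM in CDD replicates 1 to 4 and at 220, 228, 219 and 226 CPM in ND replicates 1 to 4. The diets did not overlap, and the mean was 15.5% higher in CDD brains (log2 fold change 0.21, SE 0.04, edgeR adjusted p = 0.00651). It remained past the threshold in all 8 fits that leave out 1 brain (largest adjusted p = 0.0485), which holds for none of the other 4 genes.

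*Pdia6* and *Pdia4* encode protein disulfide isomerases, which form and rearrange disulfide bonds in the ER. *Pdia6* (chromosome 12, 17316546 to 17334771, plus strand) was at 208, 196, 210 and 212 CPM in CDD replicates 1 to 4 and at 183, 191, 177 and 178 CPM in ND replicates 1 to 4. The lowest CDD brain lay close to the highest ND brain, and the mean was 13.3% higher (log2 fold change 0.18, SE 0.04, edgeR adjusted p = 0.0157). It did not pass without ND replicate 1, 3 or 4 (largest adjusted p = 0.0894). *Pdia4* (chromosome 6, 47773075 to 47790364, minus strand) was at 96.3, 110, 99.2 and 128 CPM in CDD replicates 1 to 4 and at 91.3, 90.8, 87.8 and 88.0 CPM in ND replicates 1 to 4. The ND brains lay close together, the CDD brains were spread over a far wider range with replicate 4 the highest, and the mean was 20.9% higher (log2 fold change 0.27, SE 0.07, edgeR adjusted p = 0.0334). It did not pass without CDD replicate 2 or any 1 of the ND brains (largest adjusted p = 0.124, log2 fold change 0.18 to 0.33 over the 8 fits). With an offset for gene length, added after the data were seen, *Pdia4* did not pass either (edgeR adjusted p = 0.102), although its log2 fold change was larger (0.32).

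*Calr* (chromosome 8, 85568479 to 85573563, minus strand) encodes calreticulin, a lectin chaperone that binds calcium and glycoproteins in the ER. It was at 367, 368, 366 and 379 CPM in CDD replicates 1 to 4 and at 336, 326, 334 and 332 CPM in ND replicates 1 to 4. Both groups were narrow and apart from each other, and the mean was 11.5% higher in CDD brains (log2 fold change 0.16, SE 0.04, edgeR adjusted p = 0.0307). It did not pass without CDD replicate 2 or any 1 of the ND brains (largest adjusted p = 0.124). *Sdf2l1* (chromosome 16, 16948002 to 16950247, minus strand), an ER-resident partner of *Hspa5* and its cochaperones, had fewer reads, at 9.45, 8.49, 9.94 and 9.29 CPM in CDD and 7.87, 7.78, 6.997 and 7.45 CPM in ND replicates 1 to 4. The diets did not overlap, and its mean was 23.6% higher in CDD brains, the largest relative difference among the 5 genes (log2 fold change 0.31, SE 0.09, edgeR adjusted p = 0.0371). This call held in only 1 of the 8 fits that leave out a brain, the one without CDD replicate 2, with a largest adjusted p of 0.143 in the others. With a block for the replicate number, *Sdf2l1* did not pass either (edgeR adjusted p = 0.0553).

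*Hspa5* encodes BiP, the main Hsp70 chaperone of the ER and the usual readout of the unfolded protein response. It was at 264.5, 290.5, 260.5 and 314 CPM in CDD replicates 1 to 4 and at 266, 254, 234 and 252 CPM in ND replicates 1 to 4. CDD replicates 1 and 3 lay below the highest ND brain and CDD replicate 4 was the highest of all. The mean was 12.3% higher in CDD brains, and the difference did not pass the threshold (log2 fold change 0.17, SE 0.06, edgeR adjusted p = 0.0796, unadjusted p = 0.00981). It passed without CDD replicate 3 (adjusted p = 0.0312), without the filter on low counts (0.0157), with a block for the replicate number (0.0496) and with the gene length offset (0.0474). *Hyou1*, another Hsp70-like chaperone of the ER, gave a like picture, at 117, 134, 124 and 154 CPM in CDD and 112, 120.0, 111 and 113 CPM in ND replicates 1 to 4 (log2 fold change 0.21, SE 0.07, edgeR adjusted p = 0.0810, DESeq2 adjusted p = 0.0323). With a block for the replicate number, *Hyou1* passed as well. The remaining 4 ER folding genes overlapped between the diets and did not pass the threshold with edgeR. *Dnajc3*, a cochaperone of *Hspa5*, had a log2 fold change of 0.11, *Manf*, a secreted ER-stress-inducible factor, of 0.06, *Dnajb9*, a cochaperone and known target of spliced *Xbp1*, of 0.02, and *Creld2*, a stress-inducible ER protein, of -0.01.

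Levels can be compared between genes per gene length, in the authors' FPKM. *Calr* had the highest level of all 33 genes at 128 ± 2.70 FPKM in CDD and 115 ± 1.42 FPKM in ND brains, followed in CDD brains by *Hspa5* (66.6 ± 6.25 and 59.1 ± 3.15 FPKM), *Hsp90b1* (63.7 ± 2.54 and 55.0 ± 1.13 FPKM), *Pdia6* (55.0 ± 2.07 and 48.4 ± 1.79 FPKM) and *Pdia4* (45.0 ± 6.11 and 37.1 ± 0.814 FPKM). In ND brains *Atf4* (47.1 ± 1.02 FPKM) and *Slc7a5* (38.1 ± 0.483 FPKM) stood between *Pdia6* and *Pdia4*. The neighbors *Atf4* and *Pdia6* in ND brains, and *Hspa5* and *Hsp90b1* in CDD brains, differed by less than the larger of their SDs. *Sdf2l1* was at 8.36 ± 0.539 and 6.75 ± 0.367 FPKM. Among all tested genes, the level itself moves with the calls: 8.59% of genes averaging 50 CPM or more were called higher and 5.41% lower, with a median log2 fold change of 0.02. The part of this trend in the result of the ER folding genes was not tested.

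The number of ER folding genes called higher changed with the brain left out and fell without any 1 of the ND brains. It was 5 without CDD replicate 1 or 3, 4 without CDD replicate 4, 3 without CDD replicate 2, 2 without ND replicate 2, and 1 without ND replicate 1, 3 or 4. The calls over all genes fell in the fits without an ND brain as well, for example to 204 higher and 267 lower genes without ND replicate 3. They rose to 1222 higher and 1273 lower genes without CDD replicate 3. The median log2 fold change of the 11 genes moved less, between 0.13 and 0.19. Genes of this group were often highest in the same brain: CDD replicate 4 was the highest of the 8 brains in 8 of the 11 genes and CDD replicate 3 in the other 3, while ND replicate 3 was the lowest in 6.

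Genes of ER-associated degradation, which retrieve misfolded proteins for the proteasome, gave no calls. *Sel1l*, the adaptor of the ubiquitin ligase complex, was at 162 ± 9.01 CPM in CDD and 160 ± 3.81 CPM in ND brains, *Edem1*, which speeds the degradation of misfolded glycoproteins, at 35.3 ± 0.803 and 36.2 ± 1.90 CPM, and *Herpud1*, a stress-inducible scaffold of the complex, at 26.0 ± 1.93 and 27.7 ± 1.11 CPM. Their log2 fold changes were 0.02, -0.04 and -0.09, all 3 overlapped between the diets, and 0 of 3 were called with edgeR or had an unadjusted p-value under 0.05.

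*Atf4* target genes are read here by function, starting with amino acid transport. *Slc7a5* encodes the light chain and *Slc3a2* the heavy chain of the large neutral amino acid transporter, so that the 2 genes make 1 carrier. *Slc7a5* was at 118, 136, 131 and 131 CPM in CDD replicates 1 to 4 and at 144, 141, 141 and 142 CPM in ND replicates 1 to 4. *Slc3a2* was at 86.7, 85.2, 89.8 and 82.6 CPM in CDD and 94.6, 94.0, 96.9 and 90.6 CPM in ND replicates 1 to 4. For both genes every CDD brain was below every ND brain, which holds for 7.39% of all tested genes. The differences were small and narrowly missed the threshold with edgeR (*Slc7a5* log2 fold change -0.14, SE 0.04, adjusted p = 0.0568, and *Slc3a2* -0.13, SE 0.04, adjusted p = 0.0670). *Slc7a5* passed with upper-quartile normalization (adjusted p = 0.0490) and without CDD replicate 2 or 4, and *Slc3a2* passed without CDD replicate 3. *Slc7a11*, the cystine and glutamate exchanger, which also pairs with *Slc3a2*, was at 12.6 ± 1.89 CPM in CDD and 13.6 ± 1.16 CPM in ND brains and overlapped between the diets.

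*Asns*, which makes asparagine, was at 29.1 ± 3.44 CPM in CDD and 31.8 ± 2.73 CPM in ND brains, with overlap (log2 fold change -0.13, edgeR adjusted p = 0.358). *Ddit3* encodes CHOP, the transcription factor linked to stress-induced death. It was at 10.1, 10.3, 12.5 and 10.1 CPM in CDD replicates 1 to 4 and at 10.4, 11.2, 11.7 and 12.5 CPM in ND replicates 1 to 4. Only CDD replicate 3 reached the upper end of the ND brains, the other 3 CDD brains lay below all of them, and the log2 fold change was -0.09 (SE 0.09, edgeR adjusted p = 0.596). *Ppp1r15a* (GADD34), the phosphatase subunit that ends the response, was at 9.05 ± 0.837 and 8.90 ± 1.06 CPM. Of the 12 tested *Atf4* target members, it alone had a positive log2 fold change (0.03). This value turned negative without CDD replicate 3 or ND replicate 2. *Atf5*, a transcription factor with a translational control like that of *Atf4*, had a log2 fold change of -0.14 (edgeR adjusted p = 0.242).

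The rest of the group was near the lower end of what the depth resolves. *Nupr1*, a small stress-induced chromatin protein, was at 0.845, 0.522, 0.906 and 0.211 CPM in CDD and 1.32, 0.781, 1.36 and 1.33 CPM in ND replicates 1 to 4, which overlap at ND replicate 2. Its log2 fold change of -0.92 (SE 0.32) was the largest of the 32 genes in size and did not pass the threshold (edgeR adjusted p = 0.0810). It passed without the filter on low counts (adjusted p = 0.0101), with a block for the replicate number (0.0461) and without CDD replicate 3 (0.0311). *Cebpb*, a partner of *Atf4*, was at 1.55 ± 0.255 and 2.09 ± 0.356 CPM (log2 fold change -0.43, edgeR adjusted p = 0.145), and *Atf3*, an early stress-induced repressor, at 0.584 ± 0.204 and 0.802 ± 0.322 CPM (log2 fold change -0.44, adjusted p = 0.436). *Chac1*, which breaks down glutathione, was at 2.63 ± 0.3003 and 2.66 ± 0.560 CPM, and *Trib3*, a pseudokinase that restrains *Atf4*, at 0.415 ± 0.0407 and 0.421 ± 0.189 CPM. Both had a log2 fold change of -0.02, with 95% intervals from -0.36 to 0.33 and from -0.75 to 0.71, which leave room for sizeable changes of either sign.

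The 2 groups were set side by side in each brain by the median, over the genes of a group, of log2 CPM minus the mean of the gene over the 8 brains. For the ER folding genes it was -0.008, 0.07, 0.06 and 0.18 in CDD replicates 1 to 4 and -0.06, -0.08, -0.13 and -0.08 in ND replicates 1 to 4. For the *Atf4* target genes it was -0.08, -0.05, 0.07 and -0.12 in CDD and 0.07, 0.02, 0.16 and 0.09 in ND replicates 1 to 4. The group level of the ER folding genes was higher in every CDD brain than in every ND brain, whereas CDD replicate 3 lay among the ND brains for the *Atf4* target genes. The difference between the groups, folding minus target genes, was between -0.006 and 0.30 in the CDD brains and between -0.29 and -0.10 in the ND brains. CDD replicate 4 had the highest and ND replicate 3 the lowest difference. These values describe the groups and carry no test, since the same counts gave the calls above.

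**Figure D3:**
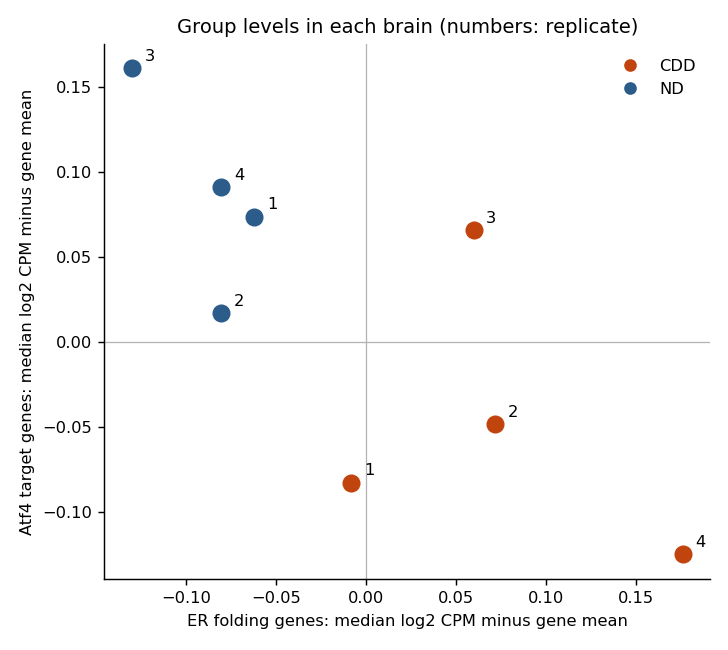
Each point is 1 brain (CDD red, ND blue, number of the replicate beside it), with the group level of the 11 ER folding genes on the x axis and of the 12 *Atf4* target genes on the y axis, both as median log2 CPM minus the gene mean. The 4 ND brains lie at the upper left, and the CDD brains reach from 0.07 (replicate 3) down to -0.12 (replicate 4) on the y axis.

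Genes of the same pathways that are not among the 33 were read from 9 further lists. Among 20 other ER folding genes, 2 were higher and 0 lower with edgeR, and the median log2 fold change was 0.04. They were *Pdia3* (12.6% higher, log2 fold change 0.17, SE 0.04, adjusted p = 0.0165) and *P4hb* (12.7% higher, 0.17, SE 0.05, adjusted p = 0.0240), both of them protein disulfide isomerases. Other thioredoxin-like folding proteins of that list did not pass, with log2 fold changes of 0.01 for *Txndc5*, 0.02 for *Txndc11*, 0.04 for *Dnajc10*, 0.10 for *Erp44* and -0.06 for *Erp29*, which were named after the values were seen. Without CDD replicate 2 or ND replicate 3 or 4 neither *Pdia3* nor *P4hb* passed, and *P4hb* also did not pass without ND replicate 1 or 2. Among 18 genes of the translocon, the channel into the ER, 1 was higher (5.56%) and 0 were lower. The gene called higher was *Serp1*, a small protein bound to the channel (log2 fold change 0.19, SE 0.05, edgeR adjusted p = 0.0165). *Serp1* did not pass without any 1 of the ND brains. Among 15 other degradation genes and among 20 other sensors and regulators, 0 were called with edgeR, with 2 genes in each list at an unadjusted p-value under 0.05.

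Other *Atf4* target genes went in both directions. Of 23 tested, 2 were higher and 3 lower with edgeR, and the median log2 fold change was -0.009. In either direction 21.7% of this list was called, against 8.83% of all genes tested. The 2 higher genes were *Psat1* (119 ± 6.90 CPM in ND and 146 ± 12.8 CPM in CDD brains, log2 fold change 0.30, SE 0.06, adjusted p = 0.00503) and *Phgdh* (84.8 ± 2.28 and 97.9 ± 3.86 CPM, 0.21, SE 0.04, adjusted p = 0.00659), which encode enzymes of serine synthesis. *Psph*, the enzyme of the last step, did not pass (log2 fold change -0.009, adjusted p = 0.965, named after the values were seen). *Psat1* and *Phgdh* remained past the threshold with each brain left out. The 3 lower genes were *Ddit4*, an inhibitor of mTORC1 (log2 fold change -0.24, SE 0.06, adjusted p = 0.0276), *Slc1a4*, a transporter of neutral amino acids (-0.16, SE 0.05, adjusted p = 0.0421), and *Slc7a1*, a transporter of cationic amino acids (-0.15, SE 0.04, adjusted p = 0.0462). *Slc1a4* and *Slc7a1* lie outside the rule for named genes and were named after the values were seen. With 1 brain left out, *Ddit4* passed in 4, *Slc1a4* in 3 and *Slc7a1* in 2 of 8 fits, and none of the 3 passed without CDD replicate 1 or ND replicate 1 or 3. Both transporters also did not pass with RLE normalization (adjusted p = 0.0529 and 0.0598), *Slc1a4* did not with the gene length offset (0.0966), and *Slc7a1* did not with at least 10 counts in every brain (0.0527). Among the 12 aminoacyl-tRNA synthetases, which charge tRNAs and include known *Atf4* targets, 0 were called with edgeR and 2 had an unadjusted p-value under 0.05. Their log2 fold changes were positive in 11 of 12, with a median of 0.06. Of the 5160 tested genes averaging 50 CPM or more, 59.3% had a positive log2 fold change, with a median of 0.02.

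In the lists of stress responses outside the ER, 8.33% of the cytosolic heat shock genes and 22.2% of the mitochondrial list were called higher. Among all tested genes 4.24% were called higher, and among those averaging 50 CPM or more 8.59%. Of 12 cytosolic heat shock genes, *Hspa8*, the constitutive Hsp70, was higher (1652 ± 78.7 CPM in CDD and 1472 ± 27.4 CPM in ND brains, log2 fold change 0.17, SE 0.05, edgeR adjusted p = 0.0386). *Hsp90aa1* (log2 fold change 0.18, adjusted p = 0.0613) and *Hsp90ab1* (0.15, adjusted p = 0.0526) narrowly missed the threshold with edgeR and were named after the values were seen. In 5 of the 12 genes every CDD brain was above every ND brain, and in 1 every CDD brain was below. These patterns hold for 7.65% and 7.39% of all tested genes. The log2 fold change was positive in 8 and negative in 4 of the 12. Of 9 mitochondrial chaperones and proteases, *Hspd1*, the matrix chaperonin (log2 fold change 0.19, SE 0.04, adjusted p = 0.0101), and *Yme1l1*, an inner membrane protease (0.19, SE 0.05, adjusted p = 0.0320), were higher, and the median of that list was -0.05. *Hspa9* narrowly missed the threshold (0.14, edgeR adjusted p = 0.0633, named after the values were seen), and 5 of the 9 log2 fold changes were negative. With 1 brain left out, *Hspa8* and *Yme1l1* each passed in 3 of 8 fits and *Hspd1* in 5, and none of them passed without ND replicate 1, 3 or 4. Of the 8 tested Nrf2 targets, the genes of the oxidative stress response, 0 were called with edgeR and 0 had an unadjusted p-value under 0.05.

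**Figure D4:**
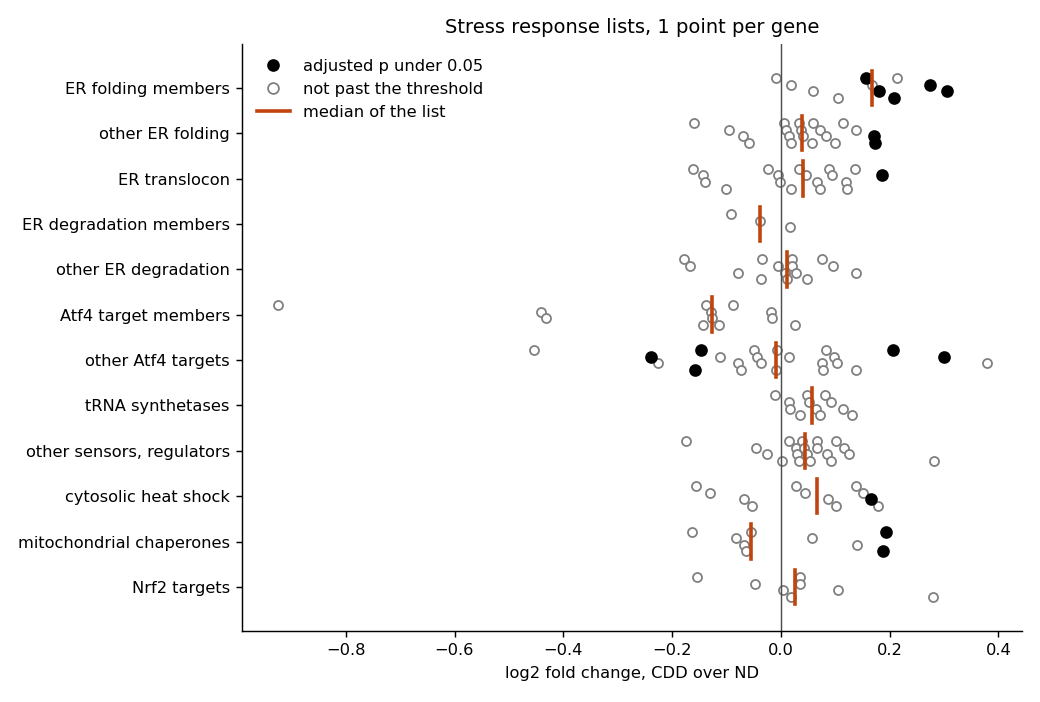
Log2 fold change (CDD over ND, x axis) of every tested gene in 12 lists of stress response genes, 1 point per gene, with the median of each list as a vertical bar and filled points for an adjusted p-value under 0.05. The ER folding members have the highest median (0.17) and the *Atf4* target members the lowest (-0.13), and the other *Atf4* targets have filled points on both sides of 0.

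Markers of some cell types differed between the diets as well. Among all genes tested, 4.24% were called higher and 4.59% lower. Among those averaging 50 CPM or more, 8.59% were called higher and 5.41% lower. The marker calls are given without the fits that leave out a brain. Of 8 progenitor markers, *Nes*, *Mki67*, *Pax6* and *Vim* were higher with edgeR and 0 were lower, and the summed level of the list was 1789 to 2039 CPM in CDD and 1609 to 1707 CPM in ND brains, without overlap. Of 8 neuronal markers, 1 (*Snap25*) was lower, with sums of 5712 to 6387 CPM and 5794 to 6007 CPM. In the erythroid list 2 of 7 were higher (the embryonic globins *Hbb-y* and *Hba-x*), with sums of 467 to 811 CPM in CDD and 432 to 1507 CPM in ND brains. The endothelial list had 1 of 6 lower (216 to 229 CPM against 234 to 242 CPM), the macrophage list 2 of 7 lower (56.3 to 64.3 CPM against 63.6 to 74.7 CPM), the meningeal list 2 of 6 lower and 1 higher (448 to 498 CPM against 475 to 568 CPM), and the choroid plexus list 0 of 6 in either direction (182 to 492 CPM against 281 to 325 CPM). The 14 Hox genes listed for caudal tissue were below the filter and summed to 0.163 to 138 CPM in CDD and 0.0938 to 0.694 CPM in ND brains. No marker in these lists was at 0 in all brains. The part of these cell types in the levels of the ER folding and *Atf4* target genes was not tested.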

How the data were processed

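Polyadenylated RNA of 8 whole E14.5 brains was compared, 4 per maternal diet, grouped by the treatment given in the labels. The authors deposited the number of reads per gene for each brain (raw counts) and FPKM values, which they made from counts scaled by library and from the listed gene length. The submitters' processing notes name HISAT2 2.0.5, featureCounts 1.5.0-p3 and DESeq2 1.20.0. The genome build is not given in the sources used here, and positions of genes are as deposited. They match the gene start in GENCODE M21 (GRCm38) for 2.14% of shared identifiers. The authors' own comparison (fold changes and p-values) and their shorter lists of changed genes were not used. The labels give no batch.

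Counts were filtered with filterByExpr of edgeR 4.0.16 (19367 of 33971 genes remained) and scaled by TMM. Diet was the only term of the robust quasi-likelihood test, with Benjamini-Hochberg adjustment over all genes tested (threshold 0.05). The SE is the log2 fold change divided by the square root of F. CPM values use TMM-scaled totals, and log2 CPM a prior count of 2. FPKM served only to compare levels between genes. The counts cover sampling of reads, and the common biological coefficient of variation between brains was 0.0814, a single value for both diets. The chi-square per degree of freedom between pairs of brains was 6.09 to 23.05 within CDD and 3.80 to 7.71 within ND. It thus reached higher values among the CDD brains. The procedure was also run on simulated counts with known changes and the same spread in both diets. That setting cannot show how calls behave when the CDD brains vary more or include littermates. The software was R 4.3.3 with DESeq2 1.42.0 as the alternative test, and Python 3.11.15 with SciPy 1.17.1, NumPy 2.4.6, matplotlib 3.10.9 and pandas 2.3.3.

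The 33 genes, the other lists and the tests were chosen with earlier results of these data known. All 33 genes are reported, with the value of each brain for those called and for *Atf4*, *Ddit3*, *Hspa5* and *Xbp1*, and up to 3 called genes by smallest p-value from each further list. Values of each brain for *Hyou1*, *Slc7a5*, *Slc3a2* and *Nupr1* were added after the data were seen. Alternatives were an adjusted p-value under 0.01, leaving out 1 brain at a time, a block for the replicate number, DESeq2, upper-quartile and RLE normalization, a minimum of 10 counts in all brains, no low-count filter, and, added after the data were seen, an offset for gene length (loess span 0.3) with and without the block. Promoters of 300 bases came from RefSeq (GRCm38.p6), matched by symbol. Protein sequences were not used here.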

Additional observations from a re-analysis of the deposited data

Results flagged for a closer look

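The 4 brains of each diet were searched for a brain far from the other 3, by the gap to its nearest neighbor relative to the range of the group. Over 68 groups (32 genes and both group levels, in 2 diets), 3 such brains were found, and about 1 in 20 groups, here 3.4, is flagged by chance. The level of *Ddit3* in CDD replicate 3 was 3.65 on the log2 CPM scale, above the other CDD brains at 3.35 to 3.38. *Nupr1* in ND replicate 2 was at -0.25, below the other ND brains at 0.46 to 0.50. *Calr* in CDD replicate 4 was at 8.56, above the other CDD brains at 8.52 to 8.53.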

How the results depend on the processing

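At an adjusted p-value under 0.01, 1 member was called higher, *Hsp90b1*, an ER folding gene, and 211 genes overall were higher and 266 lower. The number of members called lower, 0 as reported, was 1 with DESeq2 (*Atf4*), 1 with upper-quartile normalization (*Slc7a5*), 2 without the filter on low counts (*Atf4* and *Nupr1*), 2 with the replicate block, 1 with the gene length offset (*Atf4*) and 2 with both of these together. Among *Atf4* target genes this number was 1 with upper-quartile normalization, without the filter, with the replicate block and with the block and length offset together, which is *Slc7a5* in the first case and *Nupr1* in the others. The ER folding genes called higher were 5 to 7 in these settings other than the stricter threshold. The median log2 fold change was between 0.16 and 0.20 for the ER folding genes and between -0.13 and -0.10 for the *Atf4* target genes. The replicate numbers were not taken to pair the brains, since the labels give no pairing. Deviations from the group means correlated by 0.10, -0.13, 0.12 and 0.23 for numbers 1 to 4. Still, 6 of 8 brains correlated best with their own number, and what brains of the same number may share was not tested. With the replicate block, 6 members were higher and 2 lower, with 842 genes higher and 970 lower overall. Among members, *Sdf2l1* lost its call (edgeR adjusted p = 0.0553), and *Hspa5* (0.0496), *Hyou1* (0.0215), *Atf4* (0.0201) and *Nupr1* (0.0461) passed.

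With 1 brain left out, the members called higher ranged from 1 to 5 and those called lower from 0 to 3, the ER folding genes called higher from 1 to 5, the *Atf4* target genes called lower from 0 to 2, and all genes from 204 to 1222 higher and from 267 to 1273 lower. Signs turned only for members near 0 that were called in no setting. With a brain left out, the log2 fold change ranged from -0.0345 to 0.0290 for *Eif2ak4*, from -0.25 to 0.30 for *Trib3*, from -0.15 to 0.10 for *Chac1*, from -0.03 to 0.10 for *Ppp1r15a*, from -0.0466 to 0.0720 for *Dnajb9*, from -0.0736 to 0.0363 for *Creld2* and from -0.0149 to 0.0538 for *Sel1l*. *Trib3* was at 0.0078 with the replicate block, 0.0294 with the length offset and 0.0496 with both, *Chac1* at 0.0308 with the length offset and 0.0343 with both, and *Creld2* at 0.0326 with the length offset and 0.0303 with both. The cause of these differences between settings was not tested. At this depth, genes around or under 1 CPM (*Trib3*, *Atf3*, *Nupr1* and *Gdf15*) are measured with wide intervals.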
